A study of Populus trichocarpa with 45 samples.

Results

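The leaf transcriptomes of branch 13.3 and branch 14.2 of Populus trichocarpa, the black cottonwood, were compared with each other. They comprised 6 of the 45 libraries of the series, 3 from branch 13.3 and 3 from branch 14.2, and were chosen by their titles as branches of different stems whose leaf expression resembles each other in these same libraries. In a name such as 13.3 the tree comes before the point and its branch after it. The study's text describes trees 13 and 14 as stems of 1 individual, whereas the growth protocol in the labels names a single wild tree for every sample. No treatment, transgene or selected genotype separated the groups. The groups compared here were 13.3, 13.2, 13.5, 13.1 and 13.4 of stem 13 and 14.2, 14.4, 14.5, 14.3 and 14.1 of stem 14. Each had 3 mRNA libraries of leaf. Branches 4.1 to 4.5 of tree 4, also with 3 libraries each, entered the scaling and some descriptions. The study's text describes tree 4 as another tree. Every group was 1 branch, so branch, stem and anything else particular to a sampled branch cannot be told apart.

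The branches of a tree grow from meristems that divide for many years, and branches that part early share only the cell divisions before the fork. Leaves of such branches carry nearly the same genome, apart from somatic variants that arose along the stem, and differ in age and in exposure. Neighbouring genes on a chromosome are in many plants copies of one another. The deposited tables pair the gene identifiers with no gene names, and none of the 34700 identifiers matched the gene table at hand. The genes below are therefore described by identifier, position, level and pattern, and the leaf label could not be checked against marker genes.

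Depth, recovered from the deposited FPKM values, ran from 18880000 to 25960000 fragments in the 6 libraries of 13.3 and 14.2, against 11950000 to 35710000 over the 45 libraries. Between 27932 and 28790 genes were above 0 in the 6 libraries. Levels are given as scaled TPM, where TPM is a share of all transcripts corrected for gene length, divided here by a median-of-ratios factor per library. Changes are differences of log2(scaled TPM + 1), which understate the change of weakly expressed genes. A gene was called at an adjusted p of at most 0.01 in limma and an absolute log2 change of at least 1.

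The resemblance that chose the branches was examined first. The difference between branch means, taken as 1 minus Pearson's r over 23383 genes, was 0.00755 for 13.3 and 14.2. Over all libraries, this was the smallest value between the stems among the 8 branches that the study dated. The next was 0.00819 for 13.5 and 14.2, and the order was lost without replicate 1 of 13.3, as described below. With the undated branches included, 13.2 and 14.1 were closer, at 0.00723. Nearly level with the pair were 13.4 and 14.2, at 0.00759, and 13.3 and 14.1, at 0.00774. By mean absolute difference, 13.4 and 14.2 (0.153) were also closer than 13.3 and 14.2 (0.156). The largest value between stems was 0.0328, for 13.1 and 14.4.

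**Figure D1:**
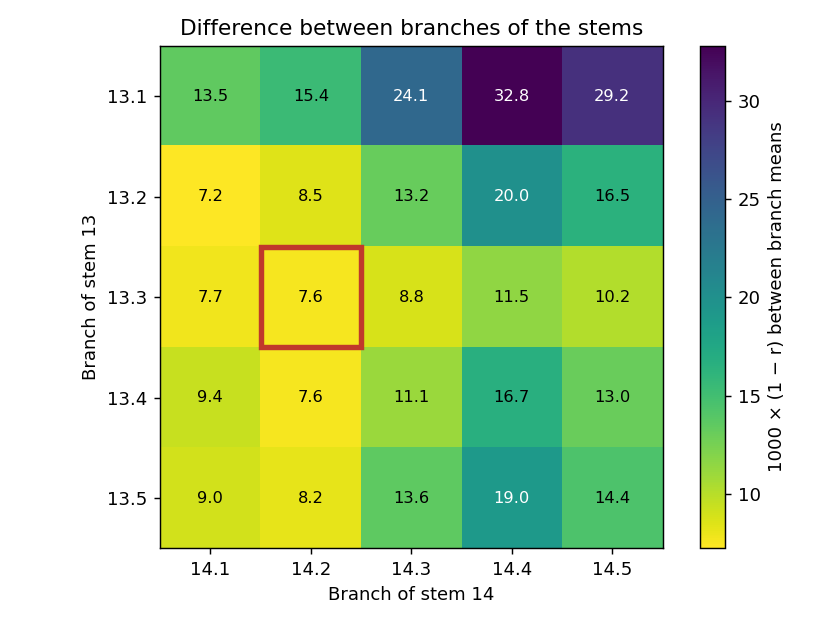
Difference between each branch of stem 13 (rows) and each branch of stem 14 (columns), as 1000 times 1 minus Pearson's r between branch means of log2(scaled TPM + 1), with the pair 13.3 and 14.2 outlined. The row of 13.3 and the columns of 14.1 and 14.2 hold mostly small values, and the row of 13.1 holds the largest, up to 0.0328 before multiplication for 13.1 and 14.4.

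Each of the branches was nonetheless closest to a branch of its own stem. For 13.3 that was 13.4, at 0.00630, and 14.2 came next. For 14.2 the closest was 14.1, at 0.00406, followed by 14.3 at 0.00717 and then 13.3. The libraries of 13.3 were less alike than those of 14.2. The 3 values between libraries within 13.3 were 0.00997, 0.0266 and 0.0268, while those within 14.2 ran from 0.00923 to 0.0102. Between the libraries of 13.3 and those of 14.2 the 9 values ran from 0.0131 to 0.0212. Replicate 1 of 13.3 stood apart from the other two and lay closest to replicate 3 of branch 13.4, at 0.00760. Without replicate 1 of 13.3 the value for 13.3 and 14.2 was 0.0124. That was above the 0.00819 of 13.5 and 14.2, so the pair was no longer the closest between the stems among dated branches.

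Replicate 1 of 13.3 also differed in a group of 198 genes that varied together between libraries of 1 branch. They took 1.03%, 19.8% and 9.81% of the TPM in replicates 1, 2 and 3 of 13.3, against 4.01%, 3.53% and 12% in replicates 1, 2 and 3 of 14.2. None of the genes called between 13.3 and 14.2 belonged to that group. Over all genes tested 194 of 23383 did, so none among the few called genes is near that share. The part of this group in the distances between branches was not tested.

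Between 13.3 and 14.2, 71 of 23383 genes met the call thresholds, which is 0.304%. Of these, 60 were higher and 11 were lower in 13.3. Because the branches were chosen on these libraries, the 71 genes are given as a description. The log2 changes ran from 1 to 3.02 in the 60 genes and from -2.13 to -1.04 in the 11 genes. The 60 genes were weakly to moderately expressed, with a median of 9.96 scaled TPM in 13.3 and 2.89 in 14.2. The 11 genes had a median of 4.23 scaled TPM in 13.3 and 14.3 in 14.2. The called genes had short spans, with a median of 1173 bases against 3492 bases over all genes tested, and lay on 18 of the chromosomes with at most 7 on any 1. On the TPM as deposited, without the library factors, the split was 29 higher and 21 lower, and the median change over all genes fell to -0.12, against 0.002 with the factors. Without replicate 1 of 13.3 the split was 50 higher and 13 lower, of which 56 genes were among the 71.

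Among the called genes, the largest positive change was that of PtStettler14.18G039000, at positions 4222668 to 4223264 of chromosome 18 in the Stettler genome, the build of the files. It had 13, 11.4 and 9.15 scaled TPM in replicates 1, 2 and 3 of 13.3, against 0.395, 0.558 and 0.523 scaled TPM in those of 14.2. Every library of 13.3 was thus far above every library of 14.2, with a log2 change of 3.02 ± 0.19 (SE). In the other branches of stem 13 its mean was 12.2 ± 3.0 scaled TPM in 13.1, 3.59 ± 0.84 in 13.4, 1.71 ± 0.50 in 13.2 and 0.407 ± 0.20 in 13.5 (SD, n = 3 each). High levels were therefore shared by 13.1 and 13.3, and 13.5 was at the level of stem 14. In stem 14 the highest mean was 1.55 ± 0.45 scaled TPM, in 14.3.

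PtStettler14.02G001400, on chromosome 2 from 98728 to 99760, was likewise highest in 13.1 and 13.3. Its level was 11.9, 11.4 and 7.56 scaled TPM in the replicates of 13.3, against 0.356, 0.610 and 0.705 in those of 14.2, a log2 change of 2.84 ± 0.21 (SE). Branch 13.1 exceeded 13.3, with 45.1 ± 11.9 scaled TPM, and 13.5 was at 0.428 ± 0.20 scaled TPM (SD, n = 3 each). Neither gene was called between 13.2 and 13.5 and 14.4 and 14.5, where the log2 changes were 0.43 ± 0.14 and 0.49 ± 0.15 (SE).

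The largest negative change among the called genes was that of PtStettler14.15G121100, on chromosome 15 from 14588756 to 14590771. It had 4.09, 4.16 and 4.44 scaled TPM in 13.3, against 20.7, 20.3 and 25.1 scaled TPM in 14.2, without overlap, and the log2 change was -2.13 ± 0.096 (SE). The change was smaller than between 13.2 and 13.5 and 14.4 and 14.5. The means were 2.78 ± 0.49 in 13.2 and 3.07 ± 0.51 in 13.5, against 54.8 ± 3.1 in 14.4 and 54.8 ± 2.2 in 14.5 (scaled TPM, SD, n = 3 each). Branch 13.4 was level with 13.3 and 14.1 was nearer to stem 13 than 14.2 was, with means of 4.11 ± 0.43 in 13.4 and 15.4 ± 2.5 in 14.1 (scaled TPM, SD, n = 3 each). The same gene had the largest negative change among the genes called between 13.2 and 13.5 and 14.4 and 14.5, with a log2 change of -3.84 ± 0.068 (SE) and an adjusted p of 3.01e-19 in limma.

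PtStettler14.12G003400, on chromosome 12 from 433039 to 438206, was also lower in 13.3. It had 5.37, 8.30 and 10.2 scaled TPM in 13.3, against 25.9, 22 and 26.9 in 14.2, and the log2 change was -1.57 ± 0.16 (SE). Between 13.2 and 13.5 and 14.4 and 14.5 its log2 change was -2.97 ± 0.11 (SE), with an adjusted p of 1.63e-13 in limma. Its means in 13.4 and 14.1 were 8.01 ± 1.5 and 16.6 ± 1.4 scaled TPM (SD, n = 3 each), so 14.1 was again nearer to stem 13 than 14.2 was.

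**Figure D2:**
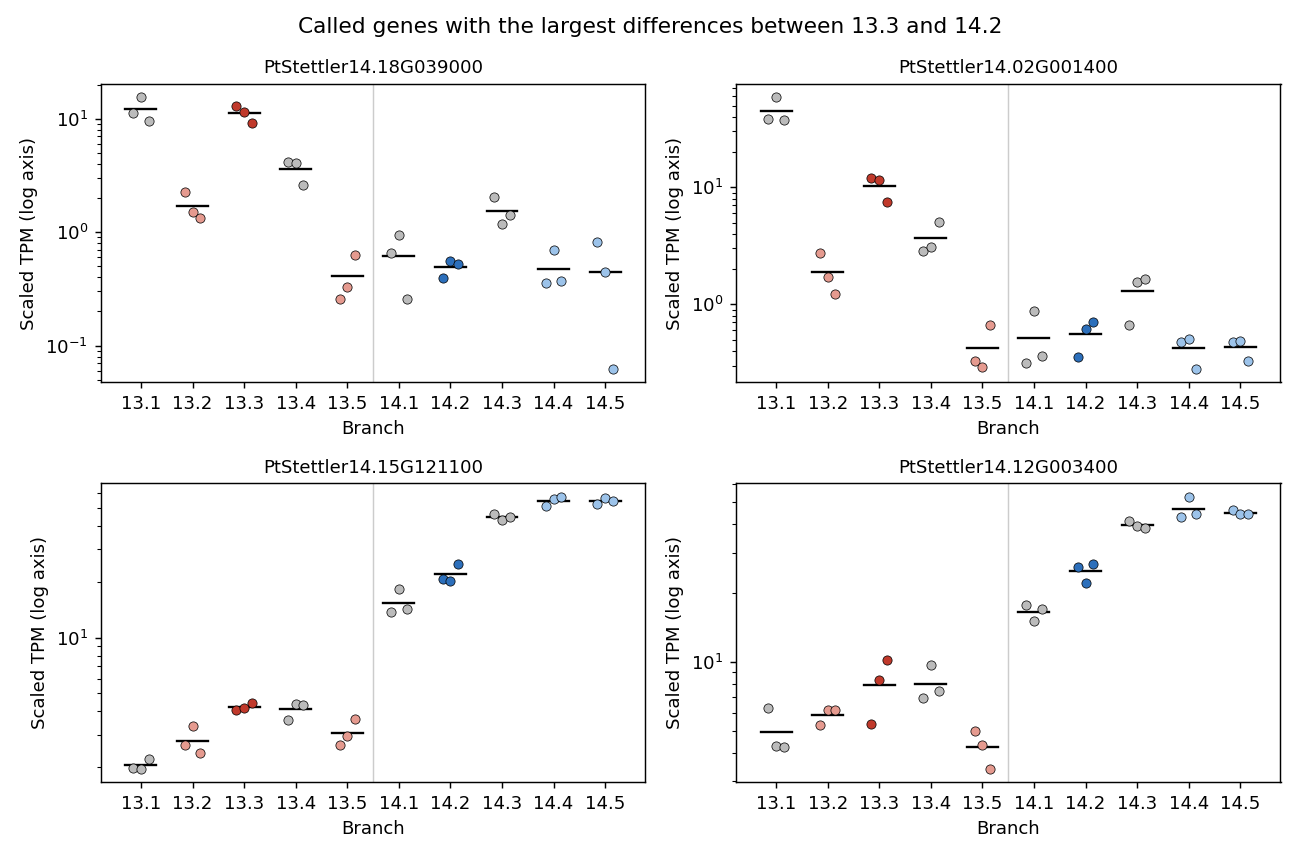
Scaled TPM (log axis) of the called genes with the largest changes between 13.3 (dark red) and 14.2 (dark blue), in each library of the 10 branches of stems 13 (left) and 14 (right); horizontal bars are means of 3 libraries. The upper genes are high in 13.1 and 13.3 (12.2 and 11.2 scaled TPM for PtStettler14.18G039000), and the lower genes are low throughout stem 13 and intermediate in 14.1 and 14.2 (15.4 and 22 scaled TPM for PtStettler14.15G121100, against 54.8 in 14.4).

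The direction of the 71 genes was then read in branches other than those compared to call them. The libraries of these other branches were in the same fit. They therefore had a part in its error estimates and in the choice of genes tested, and the reading is not independent of the calls. Between 13.2 and 13.5 and 14.4 and 14.5, 246 of 23383 genes were called in limma, or 1.05%. In the stem 13 branches 113 were higher (0.483%) and 133 were lower (0.569%). Without replicate 1 of 13.3, which is in the fit but not in this comparison, 280 genes were called, 113 higher and 167 lower. These included all 246. The unit of the fit was the library and not the branch. Its p-values thus measure the spread between libraries of a branch, and not that between branches of a stem. Of the 60 genes higher in 13.3, 14 were called higher and 0 were called lower in this comparison. Of the 11 genes lower in 13.3, 6 were called lower and 1 was called higher. The 20 genes called in the same direction and the 1 called in the opposite direction made up 29.6% of the 71 genes and 8.54% of the 246 genes.

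By sign alone, 62 of the 71 genes changed in the same direction in 13.2 and 13.5 against 14.4 and 14.5, and 9 genes, or 12.7%, changed in the opposite one. Over all genes tested, 52.2% had opposite signs in the comparisons. The median change of the 60 genes was 0.38, below their median of 1.13 between 13.3 and 14.2, whereas the median of the 11 genes was -1.3, against -1.12 between 13.3 and 14.2. The share with the opposite sign rested in part on branch 13.2. It was 33.3% without 13.2, 7.04% without 13.5, 5.80% without 14.4 and 19.1% without 14.5. On the TPM as deposited the calls between these 4 branches split into 156 higher and 104 lower.

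**Figure D3:**
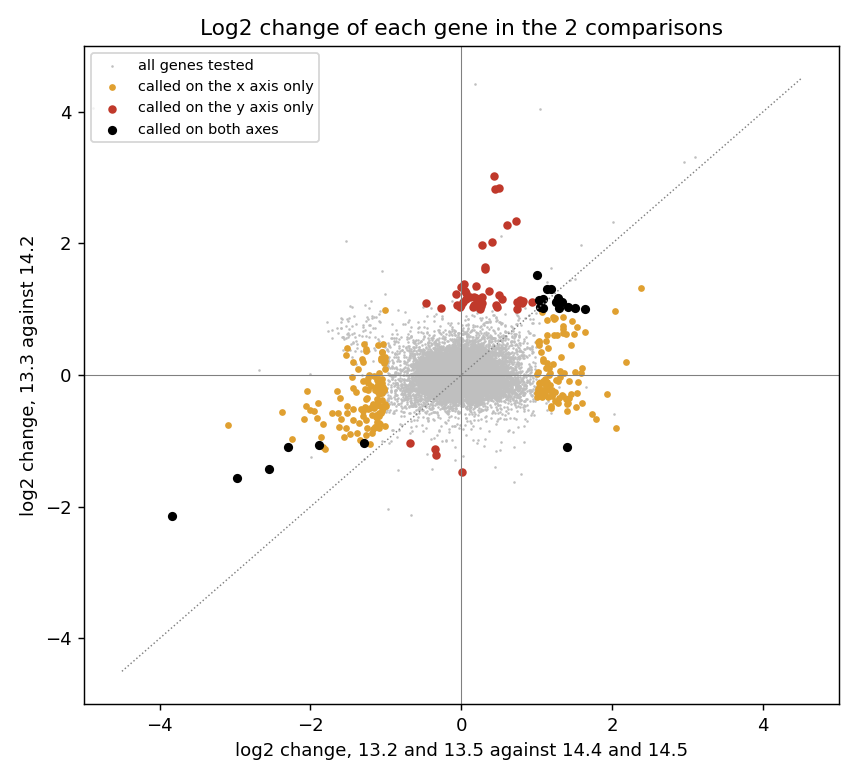
Log2 change of each of 23383 genes between 13.3 and 14.2 (y axis) and between 13.2 and 13.5 and 14.4 and 14.5 (x axis), with called genes coloured and the dotted line marking equal changes. The genes called on the y axis alone sit mostly above 0 near the middle of the x axis, the 21 genes called on both axes sit in matching quadrants apart from 1, and the genes called on the x axis alone are shown in orange.

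The genes called in both comparisons with the same sign included PtStettler14.09G082000, on chromosome 9 from 8488393 to 8490286. It had 39.9, 38.7 and 45.8 scaled TPM in 13.3, against 18.2, 14.1 and 16.4 scaled TPM in 14.2. The log2 change was 1.3 ± 0.20 (SE) there and 1.18 ± 0.14 (SE) between the other 4 branches, with an adjusted p of 1.27e-06 in limma. Unlike PtStettler14.18G039000 and PtStettler14.02G001400, it was high in all 5 branches of stem 13, with means from 34.3 to 41.5 scaled TPM. It was lower in all 5 of stem 14, with means from 13.5 to 22.5.

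PtStettler14.15G000500, on chromosome 15 from 34683 to 34973, differed between the stems in the same manner. It had 191, 164 and 199.7 scaled TPM in 13.3, against 81.4, 74.7 and 87.9 scaled TPM in 14.2. The log2 change was 1.17 ± 0.15 (SE) there and 1.27 ± 0.11 (SE) between 13.2 and 13.5 and 14.4 and 14.5, with an adjusted p of 1.80e-08 in limma. For both genes the change between 13.3 and 14.2 was close to that between the other branches, within its standard error. The genes were picked by the size of the smaller of these changes, so the closeness is a description.

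The gene called with opposite signs was PtStettler14.03G014900, on chromosome 3 from 2371059 to 2372447. It had 2.18, 2.24 and 1.84 scaled TPM in 13.3, against 6.94, 6.20 and 4.03 in 14.2, and all libraries of 13.3 were below those of 14.2. Its log2 change was -1.10 ± 0.20 (SE) in that comparison and 1.40 ± 0.14 (SE) between 13.2 and 13.5 and 14.4 and 14.5 (adjusted p of 1.44e-07 in limma). In those 4 branches the means were 5.46 ± 1.8 and 4.00 ± 1.2 scaled TPM in 13.2 and 13.5, against 0.992 ± 0.18 and 1.24 ± 0.30 in 14.4 and 14.5 (SD, n = 3 each). The call between 13.3 and 14.2 was lost without replicate 3 of 13.3 or replicates 1 or 2 of 14.2.

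The 246 genes called between 13.2 and 13.5 and 14.4 and 14.5 were then read in 13.3 and 14.2. A smaller change there followed from how the genes and the branches were chosen, so the values are a description. The lists differed in sign. Of the 133 genes lower in 13.2 and 13.5, 110 were also lower in 13.3 than in 14.2, with a median change of -0.46 against -1.20 between the other branches. Of the 113 genes higher in 13.2 and 13.5, 57 were higher and 56 were lower in 13.3 than in 14.2, with a median change of 0.01 against 1.21. Across all 23383 genes the changes in the comparisons had a Pearson's r of 0.04 and a Spearman's rho of -0.04, and r ran from -0.16 to 0.22 as single libraries were left out. The lowest value came without replicate 1 of 13.3. The genes are not independent replicates, and the branches were chosen for a small change on 1 of the axes.

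A stem index summarised these 246 genes in each library, with 0 at the mean of 14.4 and 14.5 and 1 at the mean of 13.2 and 13.5. It was 0.851, 0.712 and 0.592 in replicates 1, 2 and 3 of 13.3, against 0.483, 0.574 and 0.453 in those of 14.2. All libraries of 13.3 were above all of 14.2, and both branches lay inside the range of the 4 outer branches. The mean was 0.719 ± 0.129 in 13.3 and 0.504 ± 0.063 in 14.2 (SD, n = 3 each). Branches 13.4 (0.771 ± 0.068) and 14.1 (0.637 ± 0.022) had similar positions, and 14.1 was above 14.2. Branch 13.1 was at 1.20 ± 0.068 and 14.3 at 0.196 ± 0.041. Tree 4, which the study's text describes as another tree and which belongs to neither stem, also gave intermediate values, of 0.426 ± 0.053 in 4.1 and 0.406 ± 0.033 in 4.4, while 4.2, 4.3 and 4.5 were at -0.0341, 0.0706 and -0.150. An intermediate index is therefore not particular to branches of these stems.

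The position depended on the genes used. Over the 113 genes higher in 13.2 and 13.5 the index was 0.627 ± 0.191 in 13.3 and 0.482 ± 0.055 in 14.2, and the libraries overlapped. Over the 133 lower genes it was 0.796 ± 0.079 in 13.3 and 0.522 ± 0.072 in 14.2, without overlap. Over the wider list of genes at an adjusted p of at most 0.05, the median over genes gave 0.579 ± 0.214 in 13.3 and 0.576 ± 0.0105 in 14.2.

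**Figure D4:**
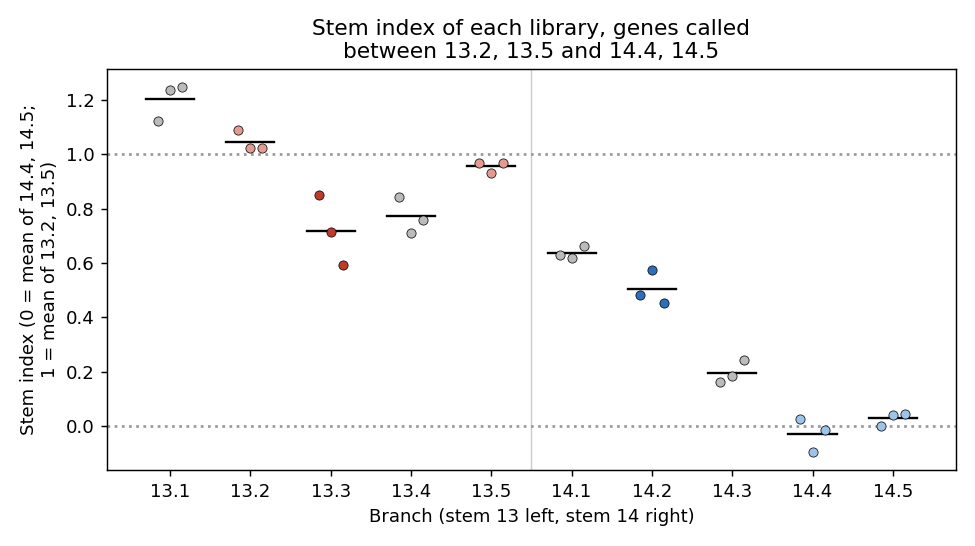
Stem index of each library (points) and mean of 3 libraries (bars) in the 10 branches of stems 13 and 14, over the 246 genes called between 13.2 and 13.5 and 14.4 and 14.5. Libraries of 13.3 (dark red) run from 0.592 to 0.851 and those of 14.2 (dark blue) from 0.453 to 0.574, between the levels of the 4 branches that define 0 and 1.

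Each branch was also compared with branches of its own stem. Between 13.3 and 13.2 and 13.5, 33 genes (0.141%) were called in limma, 29 higher (0.124%) and 4 lower (0.0171%) in 13.3. Between 14.2 and 14.4 and 14.5, 72 genes (0.308%) were called, 34 higher and 38 lower in 14.2, and on the TPM as deposited the split was 55 higher and 29 lower. Across 23383 genes the departures had a Pearson's r of -0.38, so that genes higher in 13.3 than in its neighbours tended to be lower in 14.2 than in its own. These departures share no library, but a pair chosen for resemblance favours opposite departures. The first count rested on replicate 1 of 13.3. Without it 71 genes were called, 27 higher and 44 lower, of which 29 were among the 33.

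The called genes that rose most in 13.3 relative to 13.2 and 13.5 were again PtStettler14.18G039000, by 2.64 ± 0.17 (SE) on the log2 scale (adjusted p of 1.09e-08 in limma), and PtStettler14.02G001400, by 2.47 ± 0.18 (SE, adjusted p of 3.77e-08 in limma). PtStettler14.01G302200, on chromosome 1 from 35954154 to 35956288, fell by 1.43 on the log2 scale (SE 0.22, adjusted p of 0.000858 in limma). It had 3.77, 1.86 and 1.07 scaled TPM in 13.3, against 10, 8.39 and 5.61 in 13.2 and 7.09, 6.03 and 6.96 in 13.5. The call was lost without replicate 3 of 13.3. Its level in 13.3 was close to the 1.65, 2.27 and 1.95 scaled TPM of 14.2. PtStettler14.12G112400, on chromosome 12 from 14292954 to 14294950, had 3.57, 1.34 and 0.951 scaled TPM in 13.3, against branch means of 7.51 ± 1.0 in 13.2 and 4.65 ± 2.3 in 13.5 (SD, n = 3 each). Its log2 change of -1.29 ± 0.26 (SE) just passed the threshold, with an adjusted p of 0.00888 in limma, and missed it without replicate 2 or 3 of 13.3, without any 1 library of 13.2 and under other settings.

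In stem 14, PtStettler14.11G122800, on chromosome 11 from 16960185 to 16961346, rose by 1.90 ± 0.13 (SE) on the log2 scale in 14.2 relative to 14.4 and 14.5 (adjusted p of 1.85e-08 in limma). It had 119, 137 and 99.8 scaled TPM in 14.2, against 25.2, 26.3 and 29.2 in 14.4 and 31.8, 36.8 and 38.0 in 14.5. In 13.3 it had 73.0, 70.8 and 57.6 scaled TPM, below every library of 14.2, while 13.2 and 13.5 averaged 129 and 136 scaled TPM. The stems were thus in reverse order for this gene when read in 13.3 and 14.2, although it was called between 13.2 and 13.5 and 14.4 and 14.5 and not between 13.3 and 14.2. PtStettler14.04G147300, on chromosome 4 from 18331006 to 18331837, had 100.2, 75.4 and 90.2 scaled TPM in 14.2, against means of 28.4 ± 8.0 in 14.4 and 19.2 ± 5.3 in 14.5 (SD, n = 3 each). It rose by 1.90 ± 0.16 (SE) on the log2 scale (adjusted p of 2.33e-07 in limma), and its mean in 13.3 was 50.9 ± 9.8 scaled TPM.

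Among the genes that fell in 14.2, PtStettler14.03G154000, on chromosome 3 from 19315554 to 19325590, had 2.21, 1.88 and 2.86 scaled TPM, against means of 17.3 ± 6.4 in 14.4 and 12 ± 3.35 in 14.5 (SD, n = 3 each). The log2 change was -2.18 ± 0.25 (SE, adjusted p of 5.10e-06 in limma). In 13.3 it had 8.74, 7.90 and 4.8 scaled TPM. PtStettler14.17G014600, on chromosome 17 from 1295145 to 1298790, had 2.26, 2.25 and 4.09 scaled TPM in 14.2, against 15, 14.6 and 16.8 in 14.4 and 14.1, 12.6 and 13.4 in 14.5, a log2 change of -2.02 ± 0.13 (SE, adjusted p of 1.48e-08 in limma). Its 1.68, 2.27 and 2.71 scaled TPM in 13.3 overlapped those of 14.2.

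The next 2 genes, called between 13.2 and 13.5 and 14.4 and 14.5, were not called between 13.3 and 14.2. PtStettler14.03G015000, on chromosome 3 from 2428866 to 2430571, rose by 2.18 ± 0.10 (SE) on the log2 scale in 13.2 and 13.5 (adjusted p of 4.39e-12 in limma). It had 63.6, 58.8 and 54.2 scaled TPM in 13.3, against 50.7, 54.3 and 48.7 scaled TPM in 14.2, and these libraries overlapped. PtStettler14.14G101600, on chromosome 14 from 8174027 to 8174810, fell by 3.09 on the log2 scale in 13.2 and 13.5 (SE 0.12, adjusted p of 1.63e-13 in limma). In 13.3 it had 12.3, 11.4 and 18.8 scaled TPM, against 24.5, 18.8 and 30.2 scaled TPM in 14.2. The means were 6.23 ± 1.2 in 13.2 and 11 ± 0.96 in 13.5, against 81.7 ± 5.1 in 14.4 and 74.0 ± 3.5 in 14.5 (scaled TPM, SD, n = 3 each). The means of 13.3 and 14.2 lay between these levels.

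The last of the named genes, PtStettler14.13G127600, on chromosome 13 from 15186561 to 15187501, was high or low in single libraries. It had 14.5, 0.517 and 0.356 scaled TPM in 13.3, against 0.170, 0.233 and 0.389 in 14.2. The values in 13.2 were 0.241, 14.2 and 14.5 scaled TPM, and those in 13.5 were 0.253, 14 and 14.9. The log2 change between 13.2 and 13.5 and 14.4 and 14.5 was 2.38 ± 0.65 (SE, adjusted p of 0.00632 in limma) and was lost without any 1 library of 14.4 or 14.5 and without replicate 2 or 3 of 13.2 or 13.5.

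The other branches of the stems, 13.1 and 14.3, were added to the comparison after the data were seen. Between 13.1 and 14.3, 672 genes (2.87%) were called in limma, 341 higher (1.46%) and 331 lower (1.42%) in 13.1. On the TPM as deposited these were 752 higher and 153 lower, with a median change over all genes of 0.27. Of the 60 genes higher in 13.3, 43 were called higher and 1 was called lower in 13.1, and of the 11 genes lower in 13.3, 6 were called lower and 1 was called higher. These 51 genes made up 71.8% of the 71 genes and 7.59% of the 672. By sign, 68 of the 71 genes changed in the same direction, compared with 45.9% of all genes tested. Leaving out single libraries of these branches gave between 42 and 53 genes called in the same direction.

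The 60 genes higher in 13.3 therefore fell into groups by their calls elsewhere. A group of 36 was also called between 13.1 and 14.3 but not between 13.2 and 13.5 and 14.4 and 14.5. Its median level was 7.29 scaled TPM in 13.3, against 1.48 in 14.2. It was 13.2 in 13.1, against 1.62 in 14.3. It was 2.27 in 13.2 and 1.44 in 13.5, against 1.64 in 14.4 and 1.39 in 14.5. These levels restate the calls that formed the group and are given as a description.

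A group of 14 was called between 13.2 and 13.5 and 14.4 and 14.5, of which 7 were also called between 13.1 and 14.3. Its median was 21.7 scaled TPM in 13.3, against 10.02 in 14.2, and it lay between 13.1 and 22.8 in the other branches of stem 13, against 8.59 to 12.1 in those of stem 14. The 9 genes called in neither comparison had medians of 30.8 scaled TPM in 13.3 and 13.4 in 14.2. Their medians lay between 17.8 and 31.5 in the other branches of stem 13, against 13.1 to 18.1 in those of stem 14. The remaining gene was called lower in 13.1 than in 14.3.

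**Figure D5:**
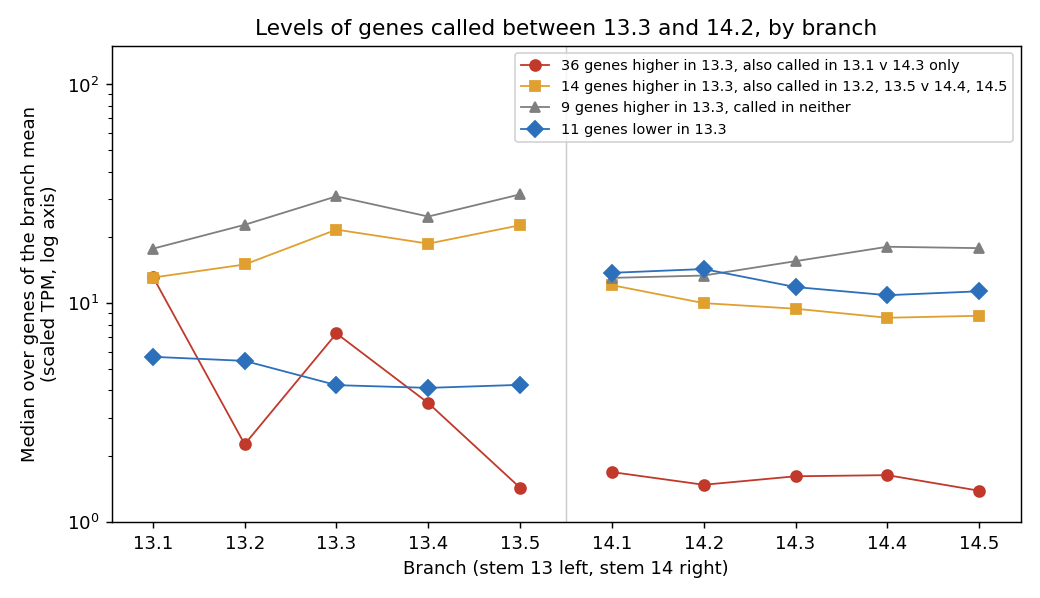
Median over genes of the branch mean (scaled TPM, log axis) for genes called between 13.3 and 14.2, grouped by whether they were also called between other branches of the stems; stem 13 is left and stem 14 is right. The 36 genes called also between 13.1 and 14.3 peak in 13.1 (13.2 scaled TPM) and 13.3 (7.29) and reach 1.44 in 13.5, as the calls that formed the group imply, while the 11 genes lower in 13.3 run from 4.11 to 5.70 across stem 13 and from 10.9 to 14.3 across stem 14.

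Branches 13.4 and 14.1, which the study left out for lack of an age, were also added after the data were seen, in a fit on 30 libraries. Only 22 of 23475 genes (0.0937%) were called between 13.4 and 14.1 in limma, 12 higher (0.0511%) and 10 lower (0.0426%) in 13.4. On the TPM as deposited the split was 42 higher and 1 lower, with a median change over all genes of 0.27. Of the 60 genes higher in 13.3, 9 were called higher in 13.4, and of the 11 genes lower in 13.3, 3 were called lower. These 12 genes were 16.9% of the 71 and 54.5% of the 22. The sign was the same for 70 of the 71 genes, compared with 67.8% of all genes tested. Across genes the changes had a Pearson's r of 0.29 and a Spearman's rho of 0.48 with those between 13.3 and 14.2.

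Genes called between 13.3 and 14.2 included runs of neighbours, defined as called genes that follow each other on a chromosome. On chromosome 17, 4 neighbouring genes from 3348119 to 3366362, all on the minus strand, were higher in 13.3 by 1.04 to 1.17 on the log2 scale. Their summed level was 13.1, 14.2 and 13.2 scaled TPM in 13.3, against 4.03, 4.89 and 3.90 scaled TPM in 14.2. The run was called in full between 13.1 and 14.3, with log2 changes from 2.09 to 2.30 and a summed level of 36.7 ± 9.4 scaled TPM in 13.1, against 4.87 ± 0.19 in 14.3 (SD, n = 3 each). None of its genes was called between 13.2 and 13.5 and 14.4 and 14.5.

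On chromosome 5, 3 neighbouring genes on the minus strand from 15080799 to 15117937 were higher in 13.3 by 1.07 to 1.39 on the log2 scale. They summed to 89.7, 82.5 and 70.7 scaled TPM in 13.3, against 34.1, 34.2 and 31.6 scaled TPM in 14.2. In 13.1 they summed to 186 ± 43 scaled TPM, against 34.9 ± 0.78 in 14.3. Branches 13.2 and 13.5 were at 24.5 ± 4.0 and 15.3 ± 1.1 scaled TPM, against 22.2 ± 4.9 and 16.8 ± 5.7 in 14.4 and 14.5 (SD, n = 3 each). Branches 13.4 and 14.1 were at 34.7 ± 2.9 and 31.6 ± 3.0 scaled TPM (SD, n = 3 each), so that among the branches of both stems only 13.1 exceeded the mean of 13.3. Relative to 13.2 and 13.5 the run extended over 5 called genes in 13.3, to position 15158997.

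Another run, on chromosome 11 from 16949511 to 16961346, held 2 neighbouring genes that were called in 14.2 relative to 14.4 and 14.5. They summed to 163, 156 and 129 scaled TPM in 13.3, against 246, 270 and 211 scaled TPM in 14.2. In 13.2 and 13.5 the sums averaged 262 ± 65 and 262 ± 7.2, against 60.8 ± 4.5 and 77.4 ± 7.2 in 14.4 and 14.5 (SD, n = 3 each). Neighbours in a run may be near-identical copies whose reads the authors' counting could divide among them. This was not tested, as no sequence was used.

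Genes beside somatic variants were examined last. The study's variant tables place variants of 13.3 in the promoter or mRNA of 5 genes and variants of 14.2 in the promoter of 4. The study kept variants that were homozygous in only 1 branch, or that became heterozygous once along the stem without reverting. The comparisons below therefore need not set carriers against branches without the variant. Of the 5 genes, 4 passed the filter on low values, and none was called between 13.3 and 13.2 and 13.5 in limma, with 0 at an unadjusted p under 0.05, against 5158 of all 23383 genes, and log2 changes from -0.11 to 0.21. Of the 4 genes, 2 passed the filter and none was called between 14.2 and 14.4 and 14.5 in limma, with 1 at an unadjusted p under 0.05, against 6899 of all 23383 genes. These numbers are too small to set the genes beside variants apart from the rest. The gene, PtStettler14.09G009600, on chromosome 9 from 2316663 to 2321321, had 96.2, 92.6 and 92.6 scaled TPM in 14.2, against 81.1 to 86.1 in the libraries of 14.4 and 14.5. The libraries did not overlap, and the log2 change was 0.16 ± 0.047 (SE, adjusted p of 0.0284 in limma). It had 101, 92.4 and 87.8 scaled TPM in 13.3, which overlapped those of 14.2. Its means in 14.1, 13.1, 13.2, 13.4 and 13.5 ran from 95.4 to 105.6 scaled TPM. These were above the mean of 93.8 in 14.2, while 14.3 was at 82.6. The 3 genes that did not pass the filter were at most at 0.0188 scaled TPM in any library of stems 13 and 14. The median absolute log2 change was 0.098 for the 4 genes, against 0.107 over all genes, and 0.132 for the 2 genes, against 0.125 over all genes.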

How the data were processed

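Leaf mRNA was measured by RNA-seq, with 3 libraries per branch, which the study's text calls biological replicates in one place and technical replicates in another. The p-values thus measure the spread between libraries of a branch. Per the labels and the study's methods, the authors trimmed reads with Trimmomatic 0.36, aligned them to the Stettler genome with HISAT2 2.1.0 and estimated expression with StringTie 1.3.4d. The authors deposited FPKM and TPM values for 34700 genes per library. The authors' own calls were made with DESeq2 on counts, which were not used here.

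Depth was recovered from the FPKM values, in which 1 fragment in a gene sets the smallest common step. TPM values were scaled by median-of-ratios factors over all libraries (0.877 to 1.11 in 13.3 and 14.2). Genes with at least 1 scaled TPM in at least 3 libraries were fitted as log2(scaled TPM + 1) in limma 3.58.1 (R 4.3.3), with a mean-variance trend, on 24 libraries of 8 branches (13.1, 13.2, 13.3, 13.5, 14.2, 14.3, 14.4 and 14.5). P-values were adjusted by the Benjamini-Hochberg method over all genes tested. The fit was tested on simulated data. Python 3.11.15, numpy 2.4.6, pandas 2.3.3 and scipy 1.17.1 were used otherwise.

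The named genes were, for each comparison, the 2 called genes with the largest positive and the 2 with the largest negative change whose libraries (branch means for a side of 2 branches) did not overlap. For genes called both between 13.3 and 14.2 and between 13.2 and 13.5 and 14.4 and 14.5, they were the 2 in each direction, with opposite or equal signs, ordered by the smaller change. The branches, comparisons and gene lists were chosen with earlier results of these data known. The comparisons of 13.1 with 14.3 and of 13.4 with 14.1 were added after seeing the data. Alternatives covered the pseudocount, filter, scaling, trend, thresholds, libraries, branches and a replicate block.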

Additional observations from a re-analysis of the deposited data

Results flagged for a closer look

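For 12 of the named genes the change between 13.3 and 14.2 differed from that between 13.2 and 13.5 and 14.4 and 14.5, by a limma test of the difference at the same thresholds. One of the changes entering each difference is the one the branches were chosen on. The named genes were also picked for large changes in the comparisons that make up the difference, which favours calls. Over all genes, 320 of 23383 were called for it. The values are therefore a description. The difference was positive for 6 of these genes. It was 2.59 (log2) for PtStettler14.18G039000 and 2.35 for PtStettler14.02G001400, which were high in 13.3. It was 1.70 for PtStettler14.15G121100, 1.40 for PtStettler14.12G003400, 2.33 for PtStettler14.14G101600 and 1.80 for PtStettler14.17G014600, which were lower in the stem 13 branches by less, or not detectably, when read in 13.3 and 14.2.

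The difference was negative for the other 6 genes. It was -1.98 for PtStettler14.03G015000, -1.46 for PtStettler14.01G302200 and -1.85 for PtStettler14.12G112400. It was -1.55 for PtStettler14.04G147300, -2.86 for PtStettler14.11G122800 and -2.50 for PtStettler14.03G014900. For PtStettler14.12G112400 and the last 3 genes the change was positive between 13.2 and 13.5 and 14.4 and 14.5 and negative between 13.3 and 14.2.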

How the results depend on the processing

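A pseudocount of 0.1 gave 108 genes called between 13.3 and 14.2, 508 between 13.2 and 13.5 and 14.4 and 14.5, 59 between 13.3 and 13.2 and 13.5, 150 between 14.2 and 14.4 and 14.5, 572 for the difference of the changes, 1134 between 13.1 and 14.3 and 52 between 13.4 and 14.1. It gave 33, 77 and 25 shared calls in the same direction with the stem branches, 13.1 against 14.3 and 13.4 against 14.1, an opposite-sign share of 10.2%, an r of -0.30 between the departures and a difference of 0.0113 between the branches. Genes with a mean of at least 5 TPM gave 42 calls between 13.3 and 14.2, 16 between 13.3 and 13.2 and 13.5 and 13 between 13.4 and 14.1, shared calls of 13, 26 and 6, an r of -0.43 and a difference of 0.0104. Without a filter the difference was 0.00449. At an adjusted p of at most 0.05 in limma with no limit on the change, the counts were 1307, 9308, 1263, 3736, 5103, 7870 and 1267 in the order of the first list. TPM as deposited gave an opposite-sign share of 4% and 43 genes between 13.4 and 14.1, and quantile normalization a share of 7.46%. A fit on only the libraries compared gave 116 genes between 14.2 and 14.4 and 14.5. The share was 33.3%, 7.04%, 5.80% and 19.1% without 13.2, 13.5, 14.4 and 14.5. Spearman's rho was -0.039 between the comparisons and -0.45 between the departures, and the wider list gave stem indices of 0.579 in 13.3 and 0.576 in 14.2. The causes were not tested.

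Leaving out single libraries gave 63 to 71 genes between 13.3 and 14.2, 30 to 71 between 13.3 and 13.2 and 13.5, 62 to 86 between 14.2 and 14.4 and 14.5, and 266 to 513 for the difference of the changes, the highest without replicate 1 of 13.3. The opposite-sign share ran from 8.57% to 15.9%, r from -0.16 to 0.22 between the comparisons and from -0.45 to -0.25 between the departures, and the difference between the branches from 0.00755 to 0.0124. Shared calls ran from 15 to 20, 42 to 53 and 9 to 13. No call of a named gene was reversed under any setting run.

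The replicate numbers did not pair the libraries. Same-numbered libraries of 13.3 and 14.2 had correlations of 0.126, -0.0769 and 0.148 between their deviations from the branch means, and only replicate 3 correlated best with its own number. With a replicate block 68 genes were called between 13.3 and 14.2, 247 between 13.2 and 13.5 and 14.4 and 14.5, 32 between 13.3 and 13.2 and 13.5, 71 between 14.2 and 14.4 and 14.5 and 315 for the difference, and the opposite-sign share was 13.2%. The filter kept genes below 1 scaled TPM in the branches compared where at least 3 other libraries reached it, and such low levels are the least precise. Each group was 3 libraries of 1 branch, which limits all comparisons.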

Other observations

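PtStettler14.13G127600 took 1 of 2 levels across the whole series. In 8 of the 45 libraries it lay between 14 and 17.2 scaled TPM, and in the other 37 between 0.117 and 0.641 scaled TPM, with none in between. The high level occurred in 1 library each of 13.3, 13.4, 14.1 and 4.1 and in 2 libraries each of 13.2 and 13.5, so that replicates of the same branch held both levels. This gene was singled out after its values were seen.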
